A study of Gallus gallus with 27 samples.

Results

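Genes of the striated muscle sarcomere, with those of its assembly, calcium storage and oxygen binding, were followed through 27 RNA-seq libraries of chicken (Gallus gallus) samples. A list of 34 gene symbols was taken, and every further symbol that begins with TNNT, TNNI or TNNC was added. Of the listed symbols, 31 had a row in the deposited table of normalized values, and TTN, NEB and CKM were not analysed here. The prefixes added 3 rows, TNNT1, TNNI3K and TNNI2.1, so that 34 of the 14161 rows of the table were members. TNNI3K encodes a kinase that binds cardiac troponin I and is no subunit of troponin. TNNI2.1 is a further row of the symbol TNNI2, and how reads were divided between these rows is not stated.

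The libraries form 9 groups of 3 replicates. FAT is labelled fat of the breed Israeli Baladi, and the labels do not state if it was dissected tissue or cells turned into fat in a dish. SCF4 and SCF2 are embryonic fibroblast lines that became immortal spontaneously and were adapted to grow in suspension, without anchorage. CF4 (breed Israeli Baladi) and CF2 (breed Broiler Ross 308) are labelled immortalized fibroblasts. CEF4 (Israeli Baladi) and CEF2 (Broiler Ross 308) are primary embryonic fibroblasts. SDF1 is labelled anchorage-independent and DF1 immortalized, both fibroblasts of the breed East Lansing Line 0. For SCF2 and for SCF4, the source name and the breed field name different breeds, so the groups are called line 2 and line 4 by their number. The breed field of SCF4 holds the number 308, as those of CEF2 and CF2 do, and that of SCF2 does not. By this field the lines would cross, so each comparison of SCF with CEF or CF depends on the match by number. Breed, embryo, dissection and culture cannot be told apart between the lines, and the replicates of a line are not separate derivations of it. P-values therefore measure the spread between these libraries.

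Striated muscle shortens when the myosin heads of the thick filaments pull on the actin of the thin filaments, inside a repeating unit called the sarcomere. Calcium that binds troponin C shifts troponin and tropomyosin along the thin filament and lets myosin bind. Z-discs anchor the thin filaments and M-bands the thick ones. In the embryo these genes are switched on as myoblasts stop dividing and fuse, and several proteins have embryonic or cardiac forms that fast and slow forms replace later. Fibroblasts and adipocytes build no sarcomeres.

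Values below are normalized reads, the deposited signal, in which 1 read was worth 1.52 to 3.16 in a FAT library and 0.294 to 0.725 in a library of cultured fibroblasts. A FAT library held 4612848 to 10435094 reads and a fibroblast library 12257468 to 28747324. Changes are differences of log2(normalized reads + 1) with their standard error (SE), which understate the change of genes with few reads. A gene was called where the adjusted p from limma, over all rows tested, was under 0.05. FAT libraries correlated with each other at 0.869 to 0.957 on the log2 scale and DF1 replicate 3 with the other DF1 libraries at 0.910 and 0.915, against 0.976 or more for all other replicate pairs. In FAT, all 7 adipocyte markers with a row had reads, and all 8 fibroblast markers had reads in CEF4 and CEF2. The adipocyte markers also had reads in CEF4 and CEF2 and the fibroblast markers in FAT, so presence of reads does not tell these groups apart.

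The members were read strongly in 2 of the 9 groups, FAT and CEF2. A mean of 10 normalized reads or more was reached by 33 of the 34 members in FAT and 28 in CEF2. In CEF4 it was 8 members, in SCF2, CF2 and DF1 4 each, in SCF4 and SDF1 3 each and in CF4 2. No member lacked reads in FAT or CEF2, while 11 had no read in any library of SCF4, of CF4 and of SDF1, 16 in SCF2, 9 in CF2, 8 in DF1 and 6 in CEF4. Together the members made up 0.225%, 0.813% and 9.44% of all normalized reads in FAT replicates 1, 2 and 3. The share was 0.160% to 0.174% in CEF2 and 0.00887% to 0.00980% in CEF4, and at most 0.0132% in any other cultured library. MYOM1 made up most of the sum in SCF2 and CF2. Without MYOM1, PDLIM3 and TMOD1 the members summed to 914 to 967 normalized reads in CEF4. This sum was 40.6 to 55.2 in SCF2 and 28.7 to 33.8 in CF2, against 15564 to 17514 in CEF2. In bulk RNA, fewer muscle cells and less RNA per muscle cell cannot be told apart.

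**Figure D1:**
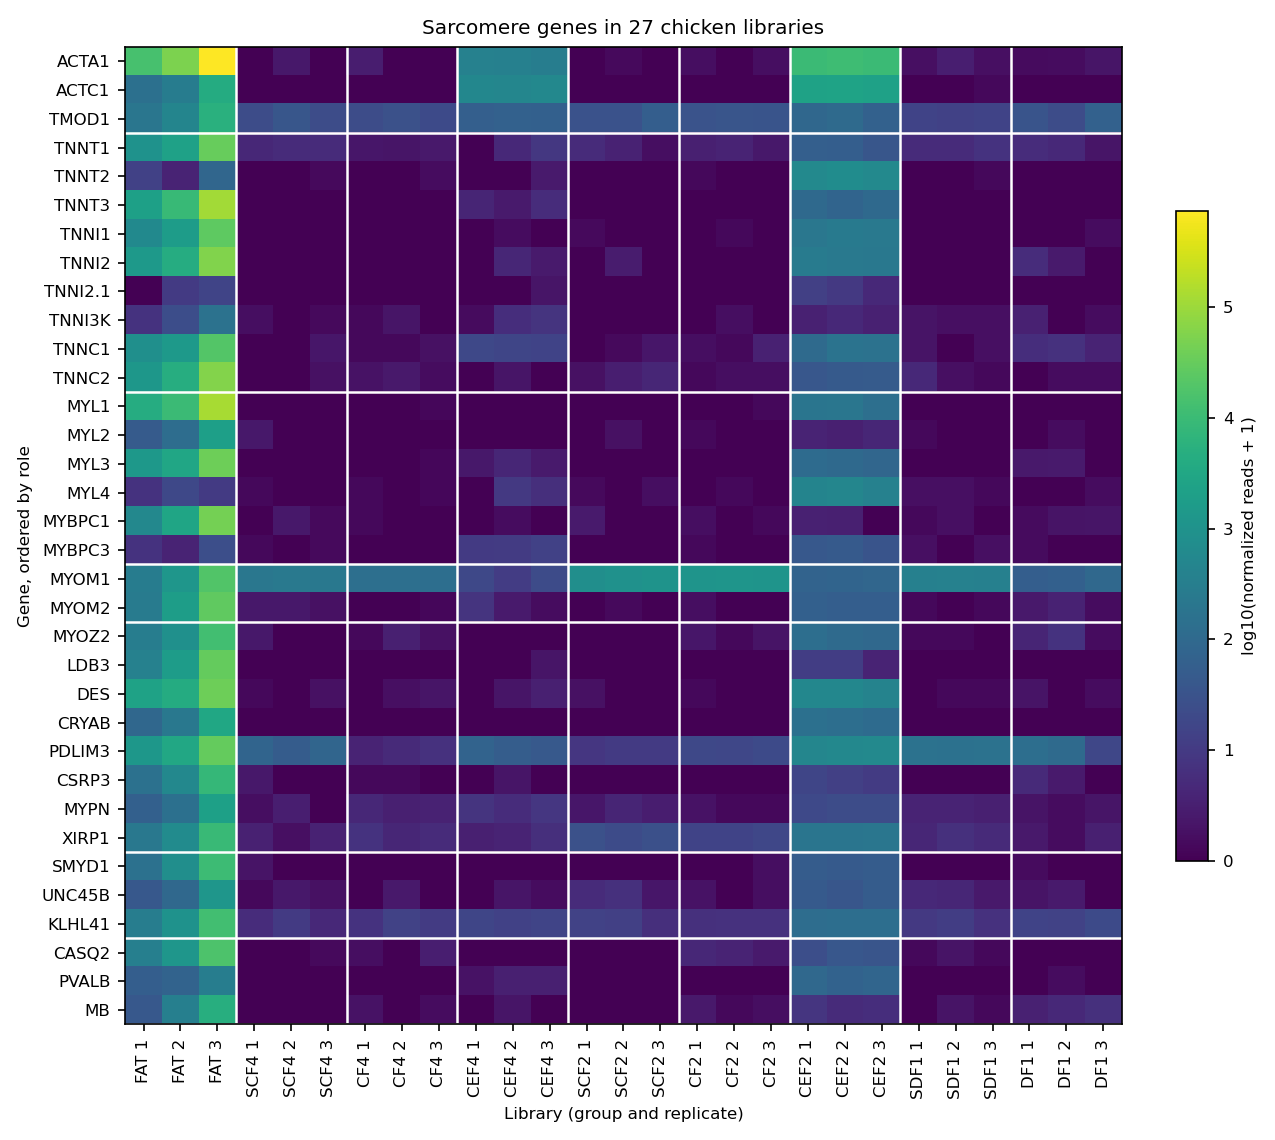
Heatmap of log10(normalized reads + 1) for the 34 members (rows, grouped by role with white lines) in the 27 libraries (columns, 3 per group). FAT and CEF2 are bright in most rows, CEF4 in few, and MYOM1, TMOD1, PDLIM3, KLHL41 and XIRP1 have reads in every library.

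The suspension and attached lines were set against the primary culture of the same number to ask what immortal growth changed. In line 2, most of the muscle genes that the primary culture expressed fell in both immortal lines, and 23 members in SCF2 and 20 in CF2 had 3 reads or fewer over the group. TMOD1, XIRP1, KLHL41 and PDLIM3 fell but kept reads in every library of both lines. TNNT1, MYPN and TNNC2 did so too, at 10 reads or fewer in each of these libraries. In SCF2 against CEF2, 32 of the 34 members fell and 1, MYOM1, rose, where 39% of all 13123 rows tested fell and 32.3% rose. In CF2 against CEF2 again 32 fell and 1 rose, where 42.6% of rows fell and 29.6% rose. The median change of the members was -5.47 in SCF2 and -5.06 in CF2, against -0.08 and -0.18 over all rows. With the 16 and 9 members that had no read in SCF2 or CF2 set to their bound, the medians were -5.93 and -5.21. All 34 members passed the filter on low values, but 33 had at least 1 normalized read in every CEF2 library and only 7 in every SCF2 or CF2 library. Members that passed through CEF2 alone had to be lower elsewhere, so these counts describe line 2 and are no measure of how unusual the set is. MYBPC1, the slow form of myosin-binding protein C, was not called, at 1.71, 0 and 0 in SCF2 and 0.633, 0 and 0.341 in CF2, against 2.502, 2.33 and 0 in CEF2. Quantile normalization, which gives all libraries the same distribution of values, left 27 of the 34 members lower and 1 higher in each comparison. It moved the median over all rows to 0.22 in SCF2 and 0.21 in CF2. Of the rows called, the share that was higher was 45.3% in SCF2 and 41.0% in CF2, and after quantile normalization 59.2% and 58.7%. The MYBPC1 call in SCF2 against CEF2 was gained without SCF2 replicate 1 or CEF2 replicate 3, and in CF2 against CEF2 without CEF2 replicate 3.

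Summed markers of other cell types were also lower in the immortal lines of number 2. The 8 fibroblast markers summed to 75981 to 98679 normalized reads in SCF2 and to 77054 to 77770.2 in CF2, against 448035 to 516078 in CEF2. Of these markers, 5 were called lower and 1 higher in SCF2, where 39% of all rows fell and 32.3% rose. DCN, at 17941, 16995 and 16806 in SCF2, lay above its 13897, 13488 and 14436 in CEF2. PDGFRA, at 139, 142 and 127 in SCF2, lay above its 90.5, 75.1 and 99.6 in CEF2. The 6 smooth muscle markers summed to 982 to 1145 in SCF2 and to 4524 to 4680.1 in CF2, against 144088 to 161145 in CEF2. The 7 adipocyte markers with a row summed to 35.6 to 44.1 in SCF2 and to 16.7 to 22.5 in CF2, against 2379.8 to 2457 in CEF2. In line 4, where fewer members fell, the fibroblast markers summed to 43095 to 64613 in SCF4, against 644350 to 987865 in CEF4. The smooth muscle markers summed to 1216 to 1482 in SCF4, against 31948 to 32993 in CEF4. The part of other cell types in the changes of the members was not tested.

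Among the actins of line 2, ACTA1, the skeletal muscle alpha-actin, had 0, 0.436 and 0 normalized reads in SCF2 and 0.633, 0 and 0.682 in CF2, against 10028, 11199 and 9962 in CEF2. The groups were far apart, and the SCF2 values rest on 1 read. ACTA1 fell by 13.17 ± 0.39 in SCF2 (log2, SE; limma adjusted p = 2.17e-15) and fell by 12.86 ± 0.39 in CF2 (adjusted p = 2.49e-15). By its reads alone it was 71541-fold lower (counting interval 12840.0 to 2825700.0) in SCF2. ACTC1, the cardiac alpha-actin that embryonic skeletal muscle also makes, had no read in any SCF2 or CF2 library, against 2392, 2513 and 2303 in CEF2. It was at least 4808-fold lower in SCF2 and at least 7187-fold lower in CF2 than in CEF2, where the floor was taken as 3 reads summed over the 3 libraries. TMOD1, tropomodulin, caps the pointed end of thin filaments and is also made outside muscle. It had 29.5, 29.2 and 55.3 in SCF2 and 31.0, 33.9 and 33.4 in CF2, against 92.6, 104 and 65.1 in CEF2, with no overlap. It fell by 1.22 ± 0.25 in SCF2 and fell by 1.36 ± 0.25 in CF2, but was not called after quantile normalization (-0.46 and -0.23). The muscle actins have nearly identical coding sequences, so reads of ACTA1, ACTC1 and the smooth muscle actins ACTA2 and ACTG2 may be divided unevenly. ACTA2 had 880.5, 918 and 719 in SCF2 and 4313, 4131 and 4161 in CF2, against 82542, 87376 and 83871 in CEF2.

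All 9 troponin rows fell in both lines of number 2. TNNT2, the troponin T of heart and of embryonic skeletal muscle, which ties troponin to tropomyosin, had no read in SCF2 and 0.316, 0 and 0 in CF2, against 587, 702 and 593 in CEF2. The difference was at least 1255-fold in SCF2. TNNI2, the fast troponin I that inhibits myosin binding at low calcium, had 0, 1.74 and 0 in SCF2 and none in CF2, against 270.2, 241 and 220.3 in CEF2. TNNI1, its slow counterpart, had 0.428, 0 and 0 in SCF2 and 0, 0.346 and 0 in CF2, against 216, 254 and 233 in CEF2. The CEF2 libraries lay far above all immortal ones for each of these genes. TNNC1, the slow and cardiac calcium sensor, had 0, 0.436 and 1.27 in SCF2 and 0.633, 0.346 and 2.39 in CF2, against 108, 175 and 164 in CEF2. It fell by 6.63 ± 0.40 (adjusted p = 4.08e-11) and fell by 6.24 ± 0.40 (adjusted p = 9.31e-11). The fast TNNT3, the slow TNNT1, the fast TNNC2 and the rows TNNI2.1 and TNNI3K fell, with changes of -1.95 to -6.53 in SCF2 and -1.69 to -6.53 in CF2. After quantile normalization TNNI3K was not called in either comparison, at -0.17 in SCF2 and 0.18 in CF2.

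Of the 6 myosin light chains and myosin-binding proteins, 5 fell in each immortal line of number 2. MYL4, the embryonic and atrial essential light chain, had 0.428, 0 and 0.635 in SCF2 and 0, 0.346 and 0 in CF2, against 442, 503 and 371 in CEF2. MYL1, the fast skeletal light chain, had no read in SCF2 and 0, 0 and 0.341 in CF2, against 186, 203 and 138 in CEF2. MYL3, the slow and ventricular light chain, had no read in either immortal line, against 111, 102 and 85.9 in CEF2. None of these groups overlapped, and MYL3 was at least 199-fold lower in SCF2 and 298-fold lower in CF2. MYBPC3, the cardiac myosin-binding protein C, had no read in SCF2 and 0.316, 0 and 0 in CF2, against 41.3, 44.3 and 33.1 in CEF2. MYL2, the regulatory light chain of slow and ventricular muscle, stayed near the limit of detection everywhere in line 2. It had 0, 0.872 and 0 in SCF2 and 0.316, 0 and 0 in CF2, against 2.92, 2.33 and 3.17 in CEF2. Its changes of -1.62 and -1.79 were called but turned to 0.25 and 0.01 after quantile normalization, where they were not called.

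The M-band split. MYOM2, an M-band protein of fast and cardiac fibres that crosslinks myosin, had 0, 0.436 and 0 in SCF2 and 0.633, 0 and 0 in CF2, against 61.3, 56.4 and 56.3 in CEF2. MYOM1, myomesin 1, its relative in all striated muscle, had 798, 950.3 and 1017 in SCF2 and 1081, 1126 and 1065 in CF2, against 74.6, 75.1 and 88.0 in CEF2. All immortal libraries lay above all CEF2 libraries for MYOM1 and below them for MYOM2. MYOM1 rose by 3.52 ± 0.18 in SCF2 (adjusted p = 4.16e-12) and by 3.77 ± 0.18 in CF2 (adjusted p = 1.42e-12), while MYOM2 fell by 5.71 ± 0.42 and fell by 5.65 ± 0.42.

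All 8 Z-disc and intermediate filament genes fell in line 2. PDLIM3, a PDZ and LIM protein of the Z-disc, kept reads, with 7.70, 9.15 and 8.89 in SCF2 and 18.03, 16.9 and 20.1 in CF2, against 508, 539 and 584 in CEF2. DES, desmin, the muscle intermediate filament, had 0.856, 0 and 0 in SCF2 and 0.316, 0 and 0 in CF2, against 518, 522 and 413 in CEF2. XIRP1, an actin-binding repeat protein of muscle attachment sites, kept 27.8, 20.5 and 26.7 in SCF2 and 13.9, 13.8 and 16.4 in CF2, against 189, 195 and 205 in CEF2. No library of an immortal line reached the CEF2 range for any of them. CRYAB, the small heat shock protein that guards desmin, had no read in SCF2 or CF2, against 149, 135 and 112 in CEF2. That is at least 264-fold lower in SCF2 and 394-fold lower in CF2. The Z-disc genes MYOZ2 (a calcineurin-binding protein), LDB3, CSRP3 (the muscle LIM protein) and MYPN (myopalladin) fell, with changes of -2.87 to -6.79 in SCF2 and -3.02 to -5.92 in CF2. The call of MYPN in SCF2 was lost after quantile normalization (-0.56).

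Assembly factors and sarcoplasmic proteins followed. SMYD1, a methyltransferase needed for myofibril assembly, had no read in SCF2 and 0, 0 and 0.682 in CF2, against 49.2, 46.1 and 48.9 in CEF2. UNC45B, the myosin chaperone, had 4.28, 5.67 and 1.27 in SCF2 and 0.949, 0 and 0.682 in CF2, against 45.5, 36.8 and 51.0 in CEF2. KLHL41, a Kelch protein that stabilizes nebulin, kept 13.3, 11.8 and 5.08 in SCF2 and 5.38, 5.88 and 5.79 in CF2, against 122.6, 131 and 132 in CEF2. All 3 fell in both lines, and KLHL41 fell by 3.65 ± 0.32 in SCF2 and fell by 4.28 ± 0.32 in CF2. CASQ2, which stores calcium in the sarcoplasmic reticulum, had no read in SCF2 and 3.48, 2.77 and 1.70 in CF2, against 25.02, 38.2 and 34.1 in CEF2. PVALB, parvalbumin, a calcium buffer of fast fibres, had no read in SCF2 or CF2, against 97.2, 69.9 and 80.9 in CEF2. MB, myoglobin, which binds oxygen, had no read in SCF2 and 1.58, 0.346 and 0.682 in CF2, against 7.09, 4.20 and 4.93 in CEF2. MB was low even in CEF2, and its falls of 2.65 and 1.80 were not called after quantile normalization, where they were -0.71 and 0.59. After that normalization the CASQ2 fall in CF2 was not called either (-0.77).

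In line 4 the primary culture had few of these transcripts to lose. In SCF4 against CEF4, 13 of 34 members fell and 1 rose, where 36.1% of rows fell and 32.7% rose. In CF4 against CEF4, 14 fell and 2 rose, where 39% of rows fell and 31.2% rose. These shares of the members lie near those of all rows for falls. The median change of the members was -0.36 in each, also with members without reads at their bound, against -0.04 and -0.11 over all rows. After quantile normalization 4 members were higher and 8 lower in SCF4, and 6 higher and 9 lower in CF4. The median over all rows was then 0.16 in each, and 57.4% of the rows called in CF4 against CEF4 were higher, against 44.4% before it. In CEF4, 15 members had 3 reads or fewer over the group, so a fall of these was not detectable at this depth.

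Both muscle alpha-actins had reads in CEF4. ACTA1 had 0, 1.45 and 0 in SCF4 and 1.93, 0 and 0 in CF4, against 380.0, 351 and 304 in CEF4. ACTC1 had no read in SCF4 or CF4, against 522, 482 and 556 in CEF4. The immortal and primary libraries did not overlap. ACTA1 fell by 8.0 ± 0.39 in SCF4 (adjusted p = 2.11e-12) and fell by 7.91 ± 0.39 in CF4 (adjusted p = 2.39e-12). ACTC1 was at least 1043-fold lower in SCF4 and 1584-fold lower in CF4. TMOD1 had 21.7, 35.5 and 21.8 in SCF4 and 21.6, 26.9 and 20.0 in CF4, against 57.5, 65.8 and 62.0 in CEF4, and fell by 1.23 ± 0.25 and fell by 1.41 ± 0.25. ACTA2, whose coding sequence resembles theirs, had 1263, 997 and 1223 in SCF4 and 1251, 1494 and 1273 in CF4, against 18985, 17941 and 16848 in CEF4.

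Of the troponin rows of line 4, 4 of 9 fell in each immortal line. TNNC1 had 0, 0 and 1.28 in SCF4 and 0.322, 0.369 and 0.883 in CF4, against 17.97, 16.04 and 14.1 in CEF4, and fell by 3.69 ± 0.40 and fell by 3.49 ± 0.40 with no overlap. TNNT3 had no read in SCF4 or CF4, against 3.14, 1.66 and 4.51 in CEF4, and was at least 6.22-fold and 9.45-fold lower. TNNI3K had 0.687, 0 and 0.428 in SCF4 and 0.322, 1.11 and 0 in CF4, against 0.449, 4.98 and 6.76 in CEF4, so the ranges overlapped. TNNI2 had no read in SCF4 or CF4, against 0, 3.32 and 1.69 in CEF4. The calls of TNNI2 rest on single CEF4 libraries. They were lost in both comparisons without CEF4 replicate 2 (-0.71 each) or CEF4 replicate 3 (-1.06 each). TNNI3K lost its call in CF4 without CEF4 replicate 3 (-1.06) and with only CF4 and CEF4 in the fit (-1.53). After quantile normalization neither gene was called in either comparison, at -0.45 and -0.51 for TNNI2 and -0.58 and -0.62 for TNNI3K. TNNT1 had 3.44, 4.35 and 4.28 in SCF4 and 1.29, 1.11 and 1.47 in CF4, against 0, 3.87 and 7.89 in CEF4, and was not called in either. Quantile normalization brought a higher call in SCF4 (1.66).

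Among myosin light chains and binding proteins of line 4, MYBPC3, MYL3 and MYL4 fell. MYBPC3 had 0.344, 0 and 0.428 in SCF4 and no read in CF4, against 8.98, 9.40 and 12.4 in CEF4, and fell by 3.17 ± 0.25 in SCF4. MYL3 had no read in SCF4 and 0, 0 and 0.294 in CF4, against 1.35, 3.32 and 1.69 in CEF4. MYL4 had 0.344, 0 and 0 in SCF4 and 0.322, 0 and 0.294 in CF4, against 0, 8.30 and 5.07 in CEF4. The MYL4 values of CEF4 scatter, and 1 CEF4 library is at 0. Its change was -1.80 in SCF4, or -2.77 without CEF4 replicate 1 and -1.16, not called, without CEF4 replicate 2. In CF4 it was -1.68, or -2.65 without CEF4 replicate 1, and it was not called without CEF4 replicate 2 (-1.04) or 3 (-1.35), with a pseudocount of 0.1 (-2.68) or after quantile normalization (-0.84). In SCF4 it was not called after quantile normalization either (-0.89). MYL1 and MYL2 had no read in CEF4 and at most 1.37 normalized reads in any SCF4 or CF4 library, and MYBPC1 was not called.

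MYOM1 rose in line 4 as well. It had 213, 240.0 and 227 in SCF4 and 142, 142 and 129 in CF4, against 17.97, 9.96 and 21.4 in CEF4, with no overlap. The rise was 3.77 ± 0.18 in SCF4 (adjusted p = 1.52e-12) and 3.05 ± 0.18 in CF4 (adjusted p = 3.25e-11). MYOM2 had 1.37, 1.45 and 0.856 in SCF4 and 0, 0 and 0.294 in CF4, against 6.74, 1.66 and 0.563 in CEF4. It was not called in SCF4 (-0.53), though it was without CEF4 replicate 3 (-1.04). It fell by 1.55 in CF4, or by 0.90 without CEF4 replicate 1, and was not called there after quantile normalization (-0.63).

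Of the Z-disc genes of line 4, PDLIM3 had 79.0, 50.02 and 79.2 in SCF4 and 2.90, 4.06 and 5.89 in CF4, against 74.1, 52.6 and 43.4 in CEF4. SCF4 overlapped CEF4, at a change of 0.29 ± 0.23 that was not called (adjusted p = 0.279), while CF4 lay below both and fell by 3.45 ± 0.23 (adjusted p = 2.22e-10). After quantile normalization the SCF4 change was called, at 0.82. MYPN had 0.687, 2.17 and 0 in SCF4 and 3.54, 2.21 and 2.65 in CF4, against 6.74, 4.43 and 7.32 in CEF4. It fell by 2.01 in SCF4 and fell by 0.90 in CF4. The SCF4 call was lost after quantile normalization (-0.53). The CF4 call was lost without CEF4 replicate 1 or 3 (-0.84 and -0.78), without CF4 replicate 2 or 3 (-0.79 and -0.88), with edgeR (-1.08), with a pseudocount of 0.1 (-1.10) and after quantile normalization, which turned its sign (0.72). XIRP1 had 2.41, 0.725 and 2.57 in SCF4 and 6.11, 3.32 and 4.41 in CF4, against 2.25, 2.77 and 5.07 in CEF4. It was not called in SCF4 (-0.61) or CF4 (0.39). In SCF4 it was called lower without CEF4 replicate 1 or SCF4 replicate 3 (-0.79 each) and higher after quantile normalization (0.82), and in CF4 higher after quantile normalization (1.84). MYOZ2 had 1.37, 0 and 0 in SCF4 and 0.322, 2.21 and 0.883 in CF4 and no read in CEF4. It was at least 2.18-fold higher in CF4 and called (1.0), but not without CF4 replicate 2 (0.66). CRYAB had no read in SCF4, CF4 or CEF4.

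KLHL41 had 4.47, 8.70 and 3.85 in SCF4 and 6.43, 13.7 and 9.71 in CF4, against 16.2, 12.7 and 14.6 in CEF4. It fell by 1.28 in SCF4 and was not called in CF4 (-0.55). After quantile normalization its sign turned in both, to 0.29 in SCF4, not called, and to 0.98 in CF4, called higher. UNC45B and SMYD1 were not called and had at most 1.48 normalized reads in any library of line 4. PVALB had no read in SCF4 or CF4, against 0.898, 2.21 and 2.25 in CEF4, and was at least 3.58-fold and 5.45-fold lower. CASQ2 had 0, 0 and 0.428 in SCF4 and 0.643, 0 and 2.06 in CF4 and none in CEF4. It was not called in the fit given here, but it was called higher in CF4 without CF4 replicate 2 (1.17), with a pseudocount of 0.1 (2.44), without a filter or with a filter of 10 (0.78 each), with edgeR (4.36) and after quantile normalization (1.07). MB was not called in SCF4 or CF4. The other members of line 4 were not called. Of these, DES had 0.344, 0 and 0.856 in SCF4 and 0, 0.738 and 1.18 in CF4, against 0, 1.11 and 2.25 in CEF4, and was called lower in SCF4 only without CEF4 replicate 1 (-0.95). TNNT2 had 0, 0 and 0.428 in SCF4 and 0, 0 and 0.589 in CF4, against 0, 0 and 1.69 in CEF4. TNNI1, TNNI2.1, TNNC2, LDB3 and CSRP3 had at most 1.48 normalized reads in any library of line 4. TNNT1 was called lower in CF4 only without CEF4 replicate 1 (-1.53), and TNNC2 higher in CF4 only without CEF4 replicate 2 (0.98) or after quantile normalization (1.25).

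**Figure D2:**
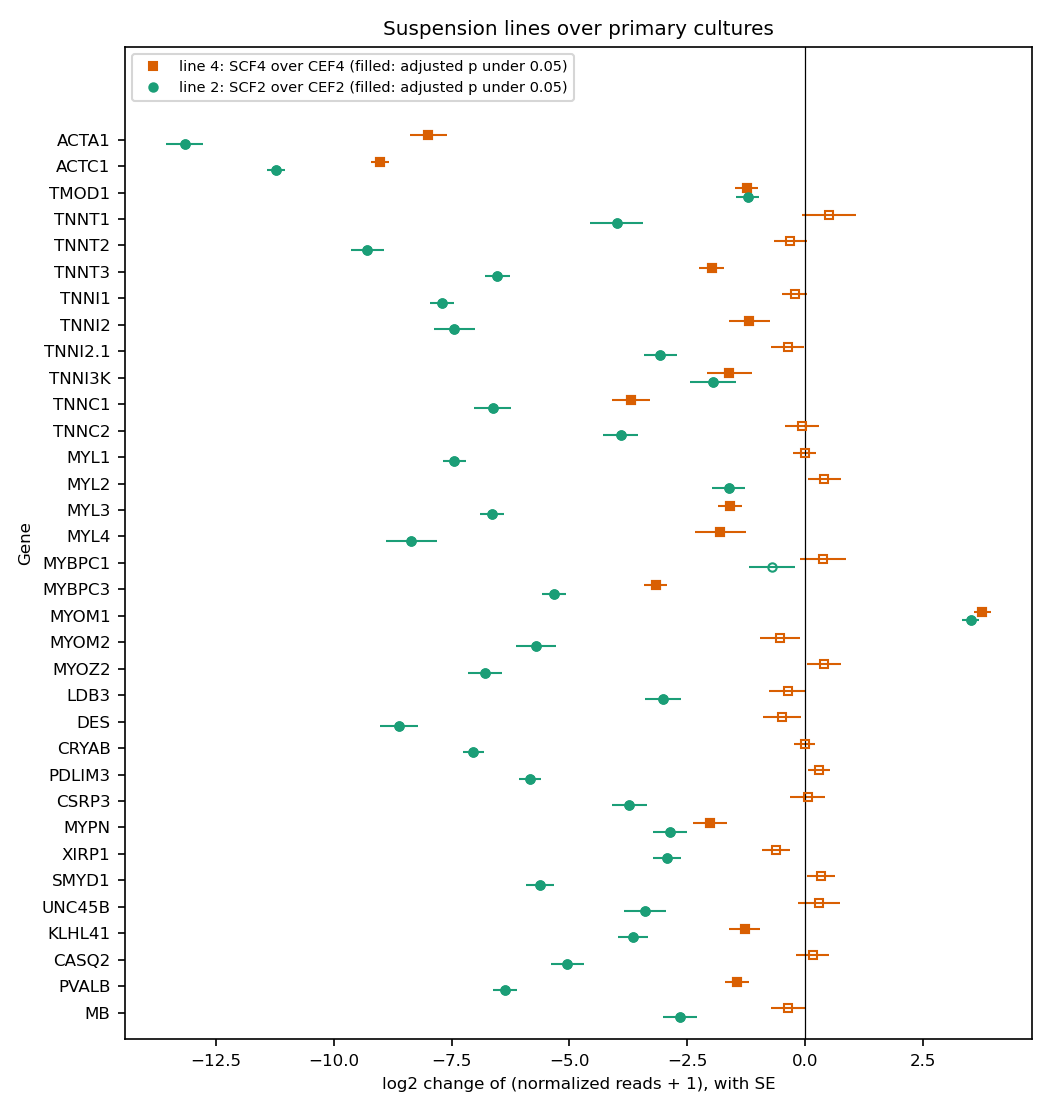
Log2 change of (normalized reads + 1) with SE for the 34 members in SCF4 over CEF4 (orange squares) and SCF2 over CEF2 (green circles), filled where the adjusted p was under 0.05. Line 2 lies far left of line 4 for most members, TMOD1 overlaps between the lines, and MYOM1 is right of 0 in both.

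Whether the change from primary to suspension growth differed between the lines was tested directly, with the change of line 2 subtracted from that of line 4. A positive difference means a smaller fall, or none, in line 4. It was positive for 29 of 34 members and negative for 0, where 25.8% of rows were positive and 20.8% negative. None was negative at an unadjusted limma p under 0.05 or with edgeR either. Of the members, 33 had at least 1 normalized read in every CEF2 library, against 12 in CEF4, 7 in SCF2 and 5 in SCF4. Members that passed the filter through CEF2 alone had to have a positive difference. The count is therefore no measure of how unusual the set is. The difference was 8.99 ± 0.49 for TNNT2 (adjusted p = 9.19e-11), 8.13 ± 0.58 for DES and 5.17 ± 0.55 for ACTA1 (adjusted p = 6.04e-07). TNNT2 and DES, with 3 and 6 reads over CEF4, could hardly fall in line 4. ACTA1 was near 0 in both suspension lines, at 2 reads over SCF4 and 1 over SCF2. Its difference therefore mostly restates that between the primary cultures (-4.91 in CEF4 against CEF2). MYOM1 (0.25), TMOD1 (-0.02), MYBPC1 (1.09), MYPN (0.86) and TNNI3K (0.35) were not called. MYBPC1 was called without CEF2 replicate 3 (1.68) and MYPN without SCF4 replicate 3 (1.26). Of the 29 members, 14 had 3 reads or fewer over the 3 CEF4 libraries and could hardly fall in line 4, so that a fall in line 2 fixed the sign of their difference. For MYL1 and CRYAB, with no read in CEF4 or SCF4, the difference is the fall in SCF2 with its sign turned. The other 15 members had more than 3 reads in CEF4, and edgeR called 7 of them, namely TNNT1, MYBPC3, MYOM2, DES, PDLIM3, XIRP1 and KLHL41. Of these 15, ACTC1, TNNT3, MYL3 and PVALB had no read in SCF2 or SCF4. Their difference is the change of CEF4 against CEF2 with its sign turned. TNNC1, MYL4, MYBPC3 and DES had 3 reads or fewer over SCF2 and over SCF4. Their differences of 2.95, 6.56, 2.16 and 8.13 mostly restate the change of CEF4 against CEF2 (-3.12, -6.83, -1.85 and -7.99). TNNI2, with 9 reads over CEF4, had little room to fall in line 4, as had DES. With a pseudocount of 0.1, 28 members were positive, and TNNC1 was not called (2.38; limma adjusted p = 0.188). Quantile normalization left 26 positive and none negative, and moved the median over all rows by -0.11. A negative binomial test with edgeR on the recovered reads called 14 of the 34, none negative. Of the 29 members called by limma, 15 were not called there, among them ACTA1 (5.68) and ACTC1 (2.22). ACTC1, TNNT3, TNNI2.1, MYL1, MYL3, LDB3, CRYAB, PVALB and MB had no read in SCF2 or SCF4. For these edgeR had no reads to compare between the suspension lines, so the lack of a call was fixed in advance. For PDLIM3, called lower in SCF2 but not called in SCF4, the difference was 6.12 ± 0.33. The tables of the authors' own comparisons listed 27 members for each line. The direction of these tables is not stated, and their signs are opposite to the changes given here. The authors' deposited table for line 2 called 25 of them positive and 1 negative, and the authors' deposited table for line 4 called 13 positive and 1 negative. The members called in line 4 were not all the same as here. The authors' table called TNNC2, MYOM2 and XIRP1, which were not called in SCF4 against CEF4 here. It did not call TNNI2 and did not list MYBPC3 or KLHL41, which were called lower here.

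The primary cultures themselves were compared next. In CEF4 against CEF2, 31 of 34 members were lower and 0 higher, also at an unadjusted limma p under 0.05 and with edgeR, where 25.7% of rows were lower and 20.5% higher. Of the members, 33 had at least 1 normalized read in every CEF2 library and 12 in every CEF4 library. Members that passed the filter through CEF2 alone had to be lower in CEF4, so the count describes the cultures and is no measure of how unusual the set is. The median of the members was -4.38, also with the 6 members without a read in CEF4 at their bound, against -0.03 over all rows. ACTA1 averaged 345 ± 38.5 in CEF4 and 10396 ± 696 in CEF2 (SD, n = 3 each), a change of -4.91 ± 0.39 (adjusted p = 9.57e-09). ACTC1 averaged 520.1 ± 37.1 in CEF4 and 2403 ± 105 in CEF2, a change of -2.21 ± 0.18. TNNT2 averaged 0.563 ± 0.976 in CEF4 and 627 ± 64.4 in CEF2, a change of -8.81 ± 0.35. The thin filament cap TMOD1 (-0.47), TNNI3K (0.08) and MYBPC1 (-0.97) were not called. MYBPC1 was called lower without CEF2 replicate 3 (-1.56), the CEF2 library without reads of it. MYL1, MYOZ2, CRYAB, SMYD1, CASQ2 and MYL2 had no read in CEF4, with MYL1 at least 336-fold lower and CRYAB at least 252-fold lower. TNNT1 and MYL4 depended on single libraries in size, not in call. TNNT1 fell by 3.84, and it fell by 2.93 without CEF4 replicate 1 and fell by 4.51 without CEF4 replicate 3. MYL4 fell by 6.83, and it fell by 5.86 without CEF4 replicate 1 and fell by 7.47 without CEF4 replicate 2. After quantile normalization MYL2 (-0.35), MYPN (-0.96) and MB (-0.77) were not called.

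Summed markers of muscle cells and of other cell types also differed between the primary cultures. The 5 skeletal myocyte regulators with a row, MYOD1, MYOG, MYF5, MYF6 and PAX7, summed to 0, 1.11 and 1.69 normalized reads in CEF4, against 1006, 1176 and 982 in CEF2. MYOG, which drives myoblasts to differentiate, had no read in CEF4, against 285, 266 and 246 in CEF2. PAX7, which marks muscle progenitors, had 0, 0 and 1.13 in CEF4, against 178, 230.3 and 213 in CEF2. MYOG, MYF5 and MYF6 also had no read in SCF4, CF4, SCF2 or CF2. The 4 cardiomyocyte markers with a row summed to 222 to 261 in CEF4, against 2435 to 2545 in CEF2. MYH15, a myosin heavy chain of the heart ventricle, made up most of these sums, with 228, 257 and 221 in CEF4, against 2528, 2422 and 2524 in CEF2. GATA4, a transcription factor of the heart, was at 0 in CEF4 and at 0, 0.466 and 0 in CEF2. The 6 smooth muscle markers summed to 31948 to 32993 in CEF4, against 144088 to 161145 in CEF2. The 7 adipocyte markers with a row summed to 639 to 782 in CEF4, against 2379.8 to 2457 in CEF2, and the 4 nerve and Schwann cell markers to 43.1 to 66.5, against 214 to 231. The 8 fibroblast markers summed to 644350 to 987865 in CEF4 and to 448035 to 516078 in CEF2. The collagens COL1A1, COL1A2 and COL3A1 made up most of these sums. Of these markers, 4 were called higher and 2 lower in CEF4, where 20.5% of all rows were higher and 25.7% lower. PDGFRA had 4.49, 17.2 and 23.1 in CEF4, against 90.5, 75.1 and 99.6 in CEF2. POSTN had 9109, 8259 and 7329 in CEF4, against 12058, 11608 and 13365 in CEF2. The part of muscle cells or of other cell types in these cultures was not tested.

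Suspension lines were also set against the attached immortal lines. As in CF against CEF, they set libraries that are in the deposited count table (CEF and SCF) against others (CF), and any difference of handling that goes with this cannot be told apart from the groups. In SCF2 against CF2, 2 of 34 members were higher and 2 lower, where 25.2% of rows were higher and 18.3% lower. In SCF4 against CF4, 2 were higher and 2 lower, where 27.3% of rows were higher and 18.4% lower. Both shares of the members are below those of all rows, and in each pair of groups most members had a mean under 10 normalized reads on both sides. PDLIM3 was lower in SCF2 than in CF2 by 1.01 ± 0.23 (adjusted p = 0.00168) and higher in SCF4 than in CF4 by 3.75 ± 0.23 (adjusted p = 1.9e-09). MYOM1 was not called in line 2 (-0.25) except with edgeR (-0.35), and was higher in SCF4 than in CF4 by 0.72 ± 0.18 (adjusted p = 0.00336). MYPN was higher in SCF2 (0.98) and lower in SCF4 (-1.10), at under 4 normalized reads in all these libraries. XIRP1 was lower in SCF4 by 1.0. UNC45B was higher in SCF2 by 1.54, and CASQ2, with no read in SCF2, was at least 5.30-fold lower there.

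The calls at low levels were fragile. MYPN in SCF2 was not called without SCF2 replicate 2 or 3 (0.76 and 1.0) or CF2 replicate 2 or 3 (0.89 each), and UNC45B not without SCF2 replicate 2 (1.22) or CF2 replicate 2 (1.25). MYPN in SCF4 was not called without SCF4 replicate 3 (-0.70) or CF4 replicate 1 (-0.97). XIRP1 in SCF4 was not called without SCF4 replicate 2 (-0.66) or CF4 replicate 1 (-0.81). With only SCF4 and CF4 in the fit neither MYPN nor XIRP1 was called. Leaving out 1 library also added calls. Lower in SCF2 were MB (-1.06) and MYOZ2 (-1.10) without CF2 replicate 2, and higher in SCF2 were KLHL41 without SCF2 replicate 3 (1.02) and TNNC2 without SCF2 replicate 1 (1.23). Lower in SCF4 were CASQ2 without CF4 replicate 2 (-0.99), MYOZ2 without SCF4 replicate 1 (-1.0) and KLHL41 without CF4 replicate 1 (-0.98) or SCF4 replicate 2 (-1.03). The difference between the lines in this contrast was tested after the opposite changes of PDLIM3 had been seen. It was positive for MYOM1 (0.97 ± 0.26) and PDLIM3 (4.76 ± 0.33, adjusted p = 6.29e-09) and negative for TNNC2 (-1.59), MYPN (-2.08), XIRP1 (-1.72) and KLHL41 (-1.36), where 17.6% of rows were positive and 18.6% negative. The calls of KLHL41 and TNNC2 each ended in several settings without 1 library, between -1.12 and -1.35 for KLHL41 and between -1.33 and -1.47 for TNNC2. CASQ2 was called without CF2 replicate 3 (1.43) or CF4 replicate 3 (1.65), and UNC45B without SCF2 replicate 3 (-1.56).

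**Figure D3:**
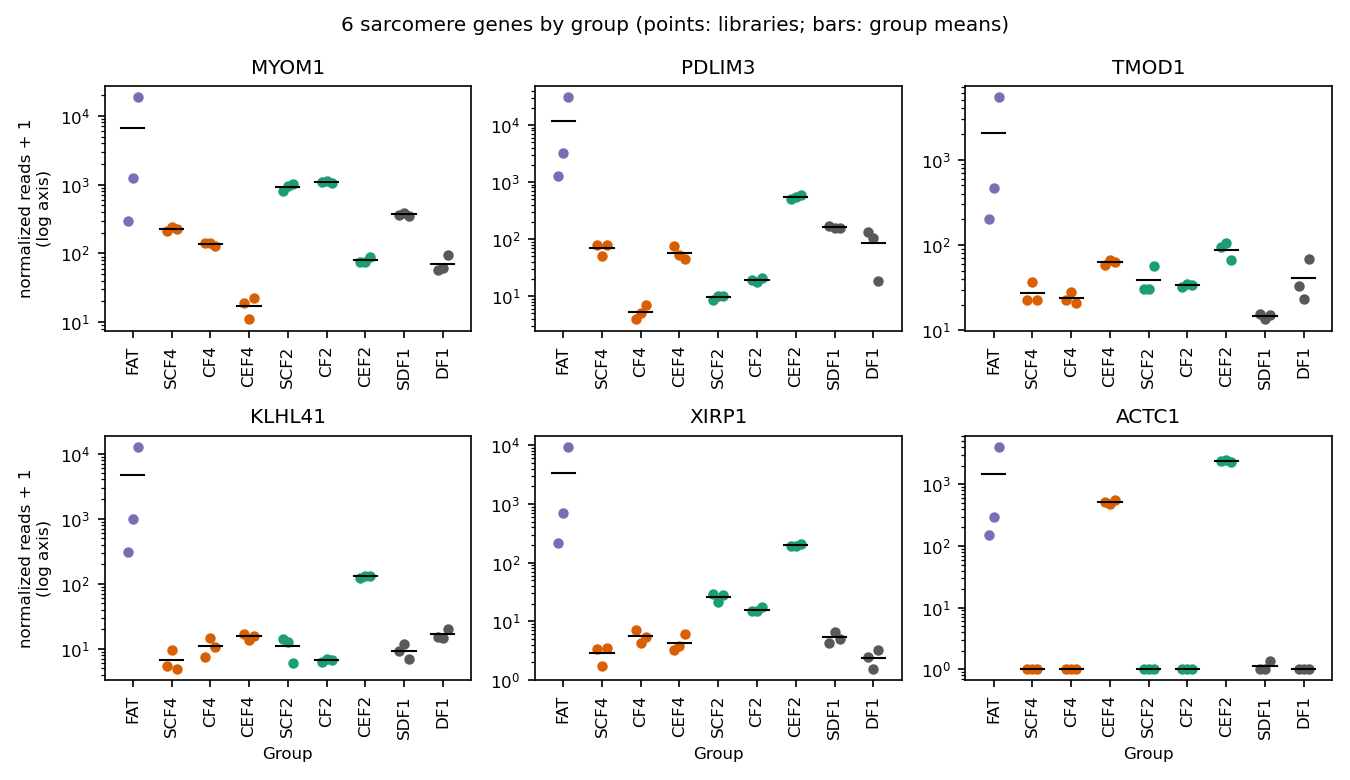
Normalized reads + 1 (log axis) of MYOM1, PDLIM3, TMOD1, KLHL41, XIRP1 and ACTC1 in each library (points) with group means (bars), by group. MYOM1 is higher in every SCF and CF library than in the CEF libraries of the same number, PDLIM3 is high in SCF4 and low in CF4, and ACTC1 has no read in SCF or CF.

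In the DF1 pair, 10 of the 34 members passed the filter on low values. As in the other immortal lines, most members were at or near 0 in SDF1 and DF1. MYOM1 had 364, 388 and 351 in SDF1, against 56.8, 60.8 and 92.9 in DF1, with no overlap, and was higher by 2.40 ± 0.21 (adjusted p = 0.00146). MYPN had 2.91, 2.84 and 2.23 in SDF1, against 0.997, 0.529 and 1.11 in DF1, and was higher by 0.97 ± 0.27. TNNC1 had 1.09, 0 and 0.745 in SDF1, against 4.99, 5.82 and 2.76 in DF1, and MB had 0, 1.07 and 0.372, against 2.49, 3.70 and 5.53. Both were lower, by 1.80 ± 0.41 and 1.75 ± 0.40. So 2 members were higher and 2 lower, where 18.8% of 11459 rows were higher and 12.8% lower. TNNC1 and MB had at least 1 normalized read in every library of DF1 but not of SDF1, and MYPN the other way round. Members that passed the filter through 1 group alone had to be lower in the other. These counts are therefore no measure of how unusual the set is. Of the rows called, 59.5% were higher, or 47.2% after quantile normalization, which moved the median over all rows by -0.14.

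PDLIM3 had 165, 156 and 158 in SDF1, against 129.6, 104 and 17.1 in DF1, where DF1 replicate 3 stood far below the other libraries. It was not called (1.35 ± 0.76), but it was without DF1 replicate 3 (0.46). TMOD1 had 14.6, 12.4 and 14.1 in SDF1, against 31.9, 22.2 and 66.9 in DF1, with DF1 replicate 3 the highest. It was not called (-1.34 ± 0.42), but it was lower without DF1 replicate 2 (-1.69) or 3 (-0.91), with edgeR (-1.62), after quantile normalization (-1.71) and with CF2 and CF4 in the fit (-1.34). KLHL41 had 8.37, 10.7 and 5.96 in SDF1, against 14.5, 13.8 and 19.3 in DF1, and XIRP1 had 3.28, 5.68 and 4.10, against 1.496, 0.529 and 2.21. Without DF1 replicate 3, KLHL41 (-0.73) and XIRP1 (1.43) were called. In that fit 4 of 16 members tested were higher and 9 lower, where 4567 of 11756 rows were higher and 4006 lower. TNNC1 was not called without any one of SDF1 replicates 1, 2 and 3 (-2.02, -1.49 and -1.89) or DF1 replicates 1 and 2 (-1.72 and -1.62). MB was not called without SDF1 replicate 1 or 3 (-1.5 and -1.72) or DF1 replicate 2 (-1.75). MYPN lost its call without any SDF1 library (0.92 to 1.06) and without DF1 replicate 1 or 2 (1.02 and 0.83). MYOM1 kept its call in all these settings. Markers of other cell types also stood apart in DF1 replicate 3, where the 6 endothelial markers summed to 2481 and the 6 smooth muscle markers to 12360.2, against 167 and 196 and against 4396 and 4488 in DF1 replicates 1 and 2. Their part in the values of that library was not tested. TNNT1 (0.64) and UNC45B (1.08) were not called.

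Normalized reads of the members summed higher in each FAT library than in any other library, and the FAT libraries differed widely among themselves. In recovered reads, the members had 10993, 37510 and 984839 in FAT replicates 1, 2 and 3, against 40075, 39111 and 46327 in CEF2. ACTA1 had 14272, 50631 and 743529 in FAT replicates 1, 2 and 3, which was 0.0925%, 0.378% and 4.69% of all normalized reads of each library. Of the 34 members, 31 were lowest in replicate 1 and highest in replicate 3, and 33 were highest in replicate 3. For the 33 members with reads in replicate 1, replicate 3 was higher than replicate 1 by a median of 38.0-fold, between 1.44-fold for MYL4 and 120-fold for MB, and 29 of them reached 10-fold. Over the 10287 rows with 10 reads or more in replicate 1, a limit not put on the members, the same ratio had a median of 0.833. Of these rows, 1.93% reached 10-fold. Replicate 2 was higher than replicate 1 by a median of 2.82-fold in the members, against 0.977 over the same 10287 rows. Each ratio compares single libraries and has no replicate check.

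Thin filament genes were taken first. ACTC1 had 149, 293 and 4034 and TMOD1 202, 470.3 and 5392. TNNT3, the fast troponin T, had 2159.5, 8874 and 112779. TNNC2, the fast troponin C, had 1287, 4555 and 59831. Replicate 3 stood 52.2-fold above replicate 1 for TNNT3 and 46.5-fold for TNNC2. TNNI2 had 1473, 4261 and 56041 and TNNT1 1009, 2308 and 31742. Fast and slow forms alike were highest in replicate 3. TNNI1 had 617, 1736 and 25514 and TNNC1 854, 1439.8 and 20338. TNNI3K had 6.32, 23.2 and 161, and TNNI2.1 0, 8.71 and 15.2. TNNT2 was lowest in replicate 2, with 12.6, 2.90 and 86.7, from 4, 1 and 57 reads.

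Thick filament genes had the same pattern except MYL4 and MYBPC3. MYL1 had 4351, 10169 and 127662. MYBPC1 had 556, 2778 and 44400.3, and MYL3 had 1375, 2964 and 37979.8. MYL2 had 47.4, 125 and 2019.5. MYL4 had 6.32, 17.4 and 9.12 and was highest in replicate 2, the 1 member not highest in replicate 3. Its values rest on 2, 6 and 6 reads, so replicates 2 and 3 differ only in the worth of 1 read. MYBPC3, the cardiac form, had 6.32, 2.90 and 24.3, from 2, 1 and 16 reads. In the M-band, MYOM2 had 281, 1808 and 26783 and MYOM1 294, 1242 and 18693. MYOM2 was 95.2-fold and MYOM1 63.6-fold higher in replicate 3 than in replicate 1.

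Among Z-disc genes, DES had 2381, 4113 and 38337 and PDLIM3 1255, 3242 and 30697. LDB3, which binds alpha-actinin at the Z-disc, had 383, 1794 and 30280.5, and MYOZ2 307, 879.6 and 12117. DES spread least of these, 16.1-fold between replicates 3 and 1, and LDB3 most, 79.1-fold. CRYAB, CSRP3, MYPN and XIRP1 had between 63.2 and 218 in replicate 1 and between 2132 and 9365 in replicate 3. The assembly factor KLHL41 had 309.9, 981 and 12645, SMYD1 155, 816 and 10701 and UNC45B 41.1, 95.8 and 1185. Each was highest in replicate 3. CASQ2 had 341, 1242 and 16626, and MB 41.1, 339.6 and 4913. PVALB had 56.9, 72.6 and 309 and spread less, 5.42-fold between replicates 3 and 1.

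The summed adipocyte markers were lowest in FAT replicate 3, where 33 members were highest. The 7 adipocyte markers with a row summed to 294201, 158334 and 70982 in FAT replicates 1, 2 and 3. FABP4, the fatty acid carrier, had 233953, 131097 and 56158, and PLIN1, the lipid droplet coat, 41037, 14648 and 7519.9. These and LPL, PPARG and CIDEC were highest in replicate 1 and lowest in replicate 3. ADIPOQ, the adipocyte hormone adiponectin, was highest in replicate 2, with 1777, 3957 and 1644, and CD36, a fatty acid receptor, had 3348, 2560.3 and 2769. The skeletal myocyte regulators summed to 66.4, 215 and 2727, with MYOD1 at 60.1, 165 and 2193 and MYF6 at 6.32, 31.9 and 357. PAX7 was at 0 in replicates 1 and 2. Of the 4 cardiomyocyte markers with a row, MYH15 had 177, 69.7 and 41.1, NPPA and TBX5 had at most 14.5 normalized reads in any FAT library, and GATA4 was at 0 in all. The 6 smooth muscle markers summed to 10130, 10415 and 6125, the 6 endothelial markers to 20839, 30079 and 7424 and the 6 macrophage markers to 25592, 20802 and 10610. All 3 FAT libraries had reads of the red blood cell markers, summing to 3333, 1962 and 929. The fibroblast markers summed to 287741, 308415 and 179534. The part of other cell types in these values was not tested.

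**Figure D4:**
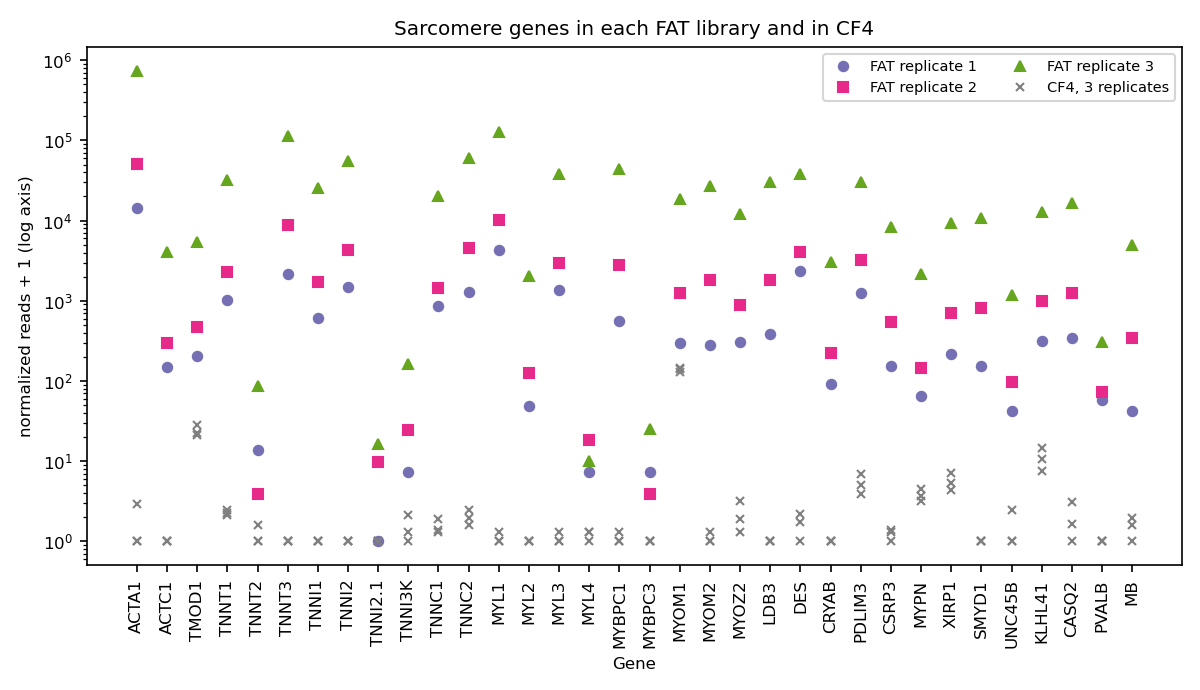
Normalized reads + 1 (log axis) of the 34 members in FAT replicate 1 (circles), 2 (squares) and 3 (triangles) and in the 3 CF4 libraries (crosses). Replicate 3 is highest for 33 members, MYL4 is the exception, and the CF4 libraries lie below the FAT libraries for most members, with reads in every CF4 library for MYOM1, TMOD1, KLHL41, XIRP1, PDLIM3 and MYPN among others.

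FAT was tested against CF4, which has the same breed label, in a fit of these groups alone, so that the spread of FAT counts. All 33 members tested were higher in FAT, where 42.7% of 12717 rows were higher and 25.8% lower. Most members passed the filter on low values through FAT alone and had to be higher there. The median change of the members was 9.54, or 10.84 with the 10 members without a read in CF4 at their bound, against 0.40 over all rows. ACTA1 was higher by 15.79 ± 1.40 (adjusted p = 0.000118), between 14.20 and 17.05 when 1 library was left out. TMOD1 was higher by 5.08 ± 1.13 (adjusted p = 0.00695), between 3.71 and 6.07. MYOM1 had 294, 1242 and 18693 in FAT, against 142, 142 and 129 in CF4, and was higher by 3.78 ± 1.39 (adjusted p = 0.048). Without FAT replicate 3 the MYOM1 change was 2.13, and it was not called without FAT replicate 2 (4.08), without any 1 of the CF4 libraries (3.73 to 3.80), without a filter (3.78), with a pseudocount of 0.1 (3.79) or after quantile normalization (3.31). TNNT2 (3.84) was not called without FAT replicate 1 (3.99) or CF4 replicate 1 or 2 (3.73 each). After quantile normalization MYL4 (0.51), MYBPC3 (0.99), TNNI3K (2.1) and TNNT2 (1.72) were not called, and 28 members were. That normalization moved the median over all rows by -0.63 and the share of higher rows among those called to 43.0%, against 62.3% before it.

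FAT and CEF2, the groups rich in the members, are set side by side as a description, with no test. The share of all rows above or below the CEF2 range was not counted, so the counts are no measure of how unusual the members are. FAT, like CF, is outside the deposited count table that holds CEF, and a difference of handling cannot be told apart from the groups. FAT replicate 3 lay above all CEF2 libraries for 31 members and below all of them for TNNT2, MYL4 and MYBPC3. FAT replicate 1 lay above all CEF2 libraries for 26 members, below all for 7 and within their range for 1, and replicate 2 above for 28, below for 4 and within for 2. TNNT2 had 12.6, 2.90 and 86.7 in FAT, against 587, 702 and 593 in CEF2. MYL4 had 6.32, 17.4 and 9.12 in FAT, against 442, 503 and 371 in CEF2. MYBPC3 had 6.32, 2.90 and 24.3 in FAT, against 41.3, 44.3 and 33.1 in CEF2. These were the 3 members below CEF2 in every FAT library. Of other members that heart muscle also makes, MYL2, MYL3 and TNNC1 lay above CEF2 in each, but ACTC1, the cardiac alpha-actin, did not. MYBPC1 had 556, 2778 and 44400.3 in FAT, against 2.502, 2.33 and 0 in CEF2, and TNNT3 had 2159.5, 8874 and 112779 in FAT, against 102, 76.0 and 98.5 in CEF2. Both lay above CEF2 in every FAT library. ACTC1 in FAT replicates 1 and 2 was below CEF2 and in replicate 3 above it, while ACTA1 was above CEF2 in each.

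**Figure D5:**
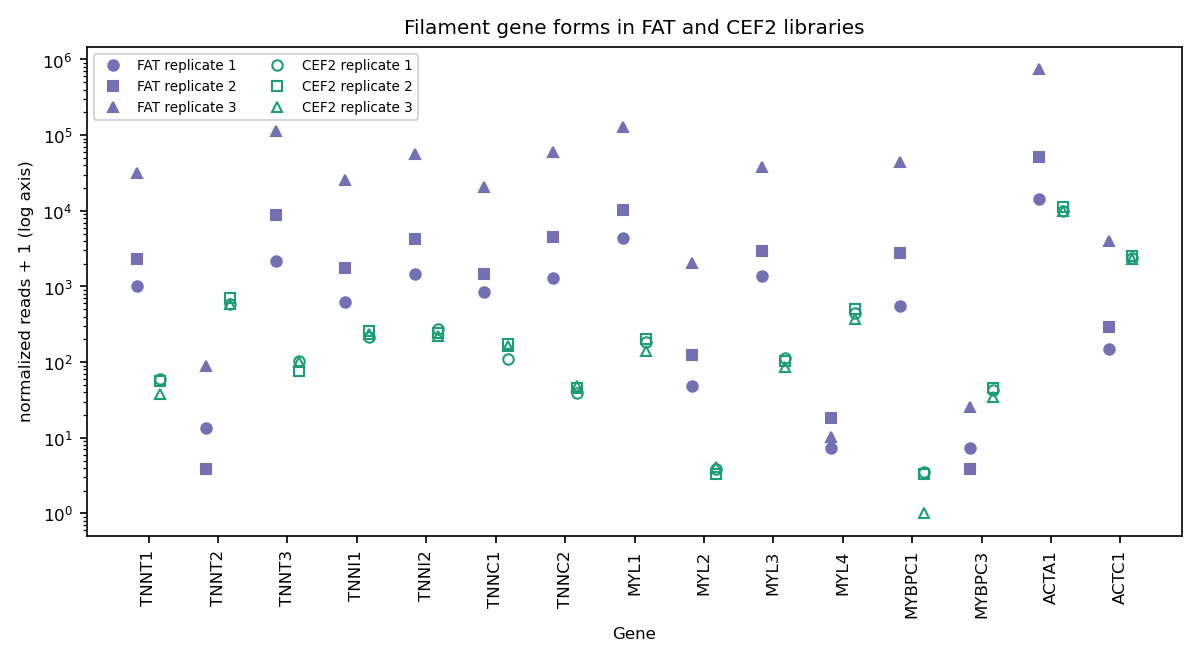
Normalized reads + 1 (log axis) of 15 filament genes in the 3 FAT libraries (filled) and the 3 CEF2 libraries (open). TNNT2, MYL4 and MYBPC3 are lower in each FAT library than in each CEF2 library, while TNNT3, MYL1, MYBPC1 and ACTA1 are higher.

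Other genes of the contractile apparatus and of excitation-contraction coupling were counted from a list of 77 symbols, of which 57 had a row and 55 were tested in the lines. Of these, 4 were higher and 41 lower in SCF2 against CEF2, and 10 and 38 in CF2 against CEF2. In SCF4 against CEF4, 19 were higher and 20 lower, where 32.7% of rows were higher and 36.1% lower. In CF4 against CEF4, 16 were higher and 15 lower, where 31.2% of rows were higher and 39% lower. The shares of the list lie near those of all rows in SCF4, and in CF4 neither is above them. In CEF4 against CEF2, 1 was higher and 44 lower. The fast heavy chain genes MYH1A to MYH1G are near-identical neighbours, so their reads cannot be placed with certainty. Their changes in line 4 were positive, between 1.80 and 3.35 in SCF4 and between 3.31 and 4.71 in CF4. In line 2 they lay between -3.83 and -1.21 in SCF2 and between 0.64 and 2.37 in CF2. ACTN2, the alpha-actinin of the Z-disc, had a change of 1.82 in SCF4 and 3.21 in CF4, against -5.56 in SCF2 and -5.59 in CF2. Over the whole list the median change in line 4 was 0 in SCF4 and in CF4, so these genes do not stand for it. The list was planned to be described by counts and medians only, and the reads and calls of these genes are not given here. The shares of all rows called are those given for each comparison above, and genes that passed the filter through CEF2 or FAT alone had to be lower or higher against them. In SDF1 against DF1, 7 of 39 were higher and 2 lower, where 18.8% of rows were higher and 12.8% lower. Neither share of the list there was above that of all rows. In FAT against CF4, 50 of 56 were higher and none lower, where 42.7% of rows were higher and 25.8% lower. Of 15 myogenic regulators tested in the lines, 15 were lower in SCF2, 15 in CF2, 8 in SCF4, 7 in CF4 and 11 in CEF4 against CEF2. Of these regulators, 3 were higher in SCF4 and 2 in CF4. In FAT against CF4, 7 of 10 were higher and 1 lower.

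Positions were compared only as neighbourhood in the RefSeq annotation of assembly GRCg7b, where 32 members had a symbol. No member lay directly beside another. TNNI1 and TNNT2 had 1 protein-coding gene between them, TNNT3 and TNNI2 had 3 and PVALB and MB had 7. TNNI1 and TNNT2 differed in FAT against CEF2. TNNI1 was above CEF2 in every FAT library and TNNT2 below it.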

How the data were processed

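Total RNA was extracted with the RNeasy Micro kit, made into libraries with the NuGEN Trio kit and sequenced as paired ends on a HiSeqX, per the labels' protocols. The submitters' processing notes name Bowtie2, RSEM and DESeq2 without versions, and galGal6 as the genome build. The authors' deposited table of all 27 libraries holds a signal per gene symbol. It was planned for as TPM, after its name, but its columns do not sum to a common total. In each library 100% of the values were whole multiples of 1 value within a tolerance of 0.01, so the signal is reads divided by 1 factor per library, called normalized reads. How the authors set the factors is not stated. The table holds 17 rows with a date in place of a symbol and 1 duplicated symbol. The authors' deposited tables of SCF and CEF hold log2 fold changes and p-values, in a direction that is not stated. Their log2 values had the opposite sign to SCF minus CEF for 2553 of 2556 and for 2419 of 2424 shared genes that changed at least 2-fold here, in line 2 and line 4. The deposited table of read counts gives gene IDs without names, so its 12 columns were not used.

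Rows with at least 1 normalized read in at least 3 libraries of the fit were tested with limma 3.58.1 (trended, robust) in R 4.3.3 on log2(normalized reads + 1), with p-values adjusted over all rows tested by the Benjamini-Hochberg method. The lines and primary cultures shared 1 fit of 18 libraries, while SDF1 with DF1 and FAT with CF4 had a fit each. With edgeR 4.0.16 on the recovered reads, the quasi-likelihood test called between 3654 rows (SDF1 against DF1) and 9458 rows (CF2 against CEF2). Alternatives were a pseudocount of 0.1, no filter, a filter of 10 normalized reads, quantile normalization, other libraries in the fit, the replicate number as a block and leaving out each library. The scripts were tested on simulated data. Tables and figures were made with Python 3.11.15, numpy 2.4.6, pandas 2.3.3 and matplotlib 3.10.9.

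Members, lists and tests were chosen with earlier results of these data known. In each comparison values were printed for at most 4 members of a role class, those with the highest group mean, and further members were named after their values were seen, mostly where 1 library or setting changed a call. Where a group had no read, a fold was taken against a floor of 3 reads over that group. Floors and counting intervals (95%, from the reads) cover counting error only.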

Additional observations from a re-analysis of the deposited data

Results flagged for a closer look

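The change from primary to suspension growth differed between the lines, by limma's test of the difference itself (line 4 minus line 2, adjusted p under 0.05), for 29 members, which sets them apart for a closer look. All these differences were positive. Members that passed the filter through CEF2 alone had to have a positive difference. Of the 29 members, 14 had 3 reads or fewer over the CEF4 libraries, where a fall in line 2 fixes the sign, and edgeR called 14 of the 29. Members without a read in both SCF2 and SCF4 could not be called by edgeR. For ACTC1, TNNT3, MYL3 and PVALB, without a read in SCF2 or SCF4, the difference is only that between the primary cultures. ACTA1, TNNC1, MYL4, MYBPC3 and DES had 3 reads or fewer over SCF2 and over SCF4. Their difference mostly restates that between the primary cultures. Among thin filament genes the differences of the 29 members were 5.17 for ACTA1, 2.21 for ACTC1, 8.99 for TNNT2, 4.55 for TNNT3, 4.51 for TNNT1, 7.49 for TNNI1, 6.26 for TNNI2, 2.71 for TNNI2.1, 2.95 for TNNC1 and 3.85 for TNNC2. Among myosin light chains, the cardiac myosin-binding protein and the M-band they were 7.44 for MYL1, 2.04 for MYL2, 5.05 for MYL3, 6.56 for MYL4, 2.16 for MYBPC3 and 5.18 for MYOM2. Among Z-disc and intermediate filament genes they were 7.21 for MYOZ2, 2.65 for LDB3, 8.13 for DES, 7.04 for CRYAB, 6.12 for PDLIM3, 3.78 for CSRP3 and 2.33 for XIRP1. Among assembly factors and sarcoplasmic proteins they were 5.96 for SMYD1, 3.68 for UNC45B, 2.37 for KLHL41, 5.21 for CASQ2, 4.94 for PVALB and 2.30 for MB.

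The change from attached to suspension growth differed between the lines for 6 members by the same kind of test, in a contrast chosen after seeing the data. The difference, line 4 minus line 2, was 4.76 for PDLIM3 and 0.97 for MYOM1, and -2.08 for MYPN, -1.72 for XIRP1, -1.59 for TNNC2 and -1.36 for KLHL41.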

How the results depend on the processing

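Of 4757 pairs of a member's change and a setting, 4565 kept their side of the threshold, 119 lost a call, 65 gained one and 8 turned their sign with a call before or after. Of the 4565, 114 turned their sign without a call in either setting, and 225 of the 349 changes kept both direction and call in every setting tried. The 8 turns with a call came with quantile normalization, to 0.25 and 0.01 for MYL2 in SCF2 and CF2 against CEF2, 0.18 for TNNI3K and 0.59 for MB in CF2 against CEF2, 0.82 for XIRP1 and 0.29 for KLHL41 in SCF4 against CEF4, and 0.72 for MYPN and 0.98 for KLHL41 in CF4 against CEF4. With that normalization 4 members were higher and 8 lower in SCF4 against CEF4, 6 and 9 in CF4 against CEF4, 1 and 4 in SCF2 against CF2 and in SDF1 against DF1, and 4 were higher in SCF4 against CF4. In the same order, 5234 and 3883, 5326 and 3949, 2718 and 2700, 1802 and 2014, and 2932 and 2760 rows were higher and lower. Rows tested were 13123, or 11459 for SDF1 with DF1. In fits of the compared groups alone, 1 of 15 members tested was higher and 9 lower in CF4 against CEF4. There 3967 of 12103 rows were higher and 4877 lower. In such a fit of SCF4 against CF4, 0 of 7 members tested were lower (2 at an unadjusted limma p under 0.05), where 2487 of 11174 rows were lower. With a pseudocount of 0.1, 1 of 34 members tested was higher and 4 lower in SCF2 against CF2, where 3219 of 13123 rows were higher and 2408 lower. In SDF1 against DF1, 1 of 10 was then higher and 0 lower, where 2050 of 11459 rows were higher and 1436 lower. With a filter of 10, 4 of 27 members tested were higher in SCF2 against CF2, where 3254 of 11400 rows were higher. In SDF1 against DF1, 1 of 4 was then higher and 0 lower, where 2006 of 9953 rows were higher and 1398 lower. EdgeR called 14 line differences positive, where 2771 of 13123 rows were positive. It called 1 of 10 members higher in SDF1 against DF1, where 1853 of 11459 rows were higher. With CF2 and CF4 in the fit, 5 of 14 members tested were lower in SDF1 against DF1, where 2416 of 11834 rows were lower. Of the counts of 0 lower in SDF1 against DF1, an unadjusted limma p under 0.05 gave 4 with the pseudocount of 0.1, 2 with the filter of 10 and 3 with the replicate block, and edgeR called 3. Leaving out 1 library gave 0 to 3 members higher and 2 to 4 lower in SCF2 against CF2, 1 to 3 lower in SCF4 against CF4, 1 to 4 higher and 0 to 9 lower in SDF1 against DF1, and 2 to 4 negative in the line difference of SCF minus CF. Without 1 library the rows called moved too, between 1349 and 8573 in SDF1 against DF1 and between 4930 and 5707 in SCF2 against CF2. They lay between 5033 and 5720 in SCF4 against CF4 and between 4146 and 4968 in the line difference of SCF minus CF. Changes in the member counts can therefore not be read apart from those over all rows. The cause was not tested for any of these changes.

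Same-numbered replicates did not deviate together, with correlations between -0.42 and 0.19 and no comparison in which all were over 0.1. The labels do not state that the numbers pair libraries, and with 3 replicates per group these correlations cannot exclude it. With the replicate number as a block, 4 of 34 members were higher in SCF2 against CF2, where 3265 of 13123 rows were higher. In SDF1 against DF1, 1 of 10 was then higher and 0 lower, where 1724 of 11459 rows were called, against 3619 without the block. In the other comparisons the counts of members called were as without the block. EdgeR and DESeq2 on the deposited counts were not run, as those gene IDs have no names here.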
